A study of Mus musculus with 27 samples.

Results

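Jejunal organoids were compared with whole jejunum tissue from control mice. The comparison takes 4 organoid libraries and 3 tissue libraries, 7 of the 27 libraries of the series, chosen by the treatment, gut segment and sample type that the labels give. All animals were C57BL/6 mice, an inbred laboratory strain, and the controls drank water for 8 weeks. Organoids are 3-dimensional cultures grown from the stem cells of intestinal crypts, here by the protocol of Sato and Clevers that the labels cite, whereas tissue is the jejunum as it was taken, the middle part of the small intestine with all of its cell types. The labels name a kit for the extraction of organoid RNA and say nothing separate on tissue, and they give no age and no passage number. Donor numbers run from 1 to 4 in organoids and from 1 to 3 in tissue, but no label says that a number stands for the same mouse in both. A second set of 8 jejunum libraries, 4 of organoids and 4 of tissue from mice that drank 15% ethanol for 8 weeks, served to ask whether the same differences appeared again. RNA was counted with the QuantSeq 3' kit, which reads a tag near the 3' end of each transcript.

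The lining of the jejunum is a single sheet of epithelial cells that is renewed all the time. Stem cells at the base of the crypts divide next to Paneth cells, which secrete defensins, and their offspring move up the villus while they turn into absorptive enterocytes, mucus-making goblet cells, hormone-making enteroendocrine cells or chemosensory tuft cells. Below the sheet lie fibroblasts, blood and lymph vessels, immune cells, nerves and smooth muscle, and several of them send the signals (Wnt ligands, R-spondins, inhibitors of bone morphogenetic proteins) that keep stem cells dividing. The cited organoid protocol replaces this neighbourhood with a gel and with added R-spondin, Noggin and epidermal growth factor. An organoid has no blood supply, no resident immune cells, no bacteria and no food in its lumen.

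The libraries of the 2 groups differed in depth. Organoid libraries held 5083997 to 7090123 counts and tissue libraries 4370319 to 7116178. Rn45s, the precursor of ribosomal RNA, took 19.7 to 23.4% of the counts in organoids and 76.3 to 84.3% in tissue (means 21.9% and 80.4%, exact two-sided permutation test, p = 0.0571, the smallest that 4 against 3 libraries allow). Outside Rn45s, 4083461 to 5429194 counts were left per organoid library and 684906 to 1510057 per tissue library, so low levels are known less well in tissue, and least in tissue library 2. Rn45s was left out of all totals. The organoid libraries resembled each other more closely (Spearman correlation across genes 0.971 to 0.983) than the tissue libraries did (0.888 to 0.930). No label says whether the libraries of a group come from separate cultures or animals beyond their donor numbers, so the p-values below measure the spread between these libraries.

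Most genes differed. Levels are given as counts scaled to library size outside Rn45s and by the TMM factors (CPM), and changes as log2 of organoids over tissue ± standard error. Of 11269 genes that passed the low-count filter, 7202 (63.9%) differed in the edgeR quasi-likelihood test (Benjamini-Hochberg adjusted p under 0.05), 3806 higher in organoids (33.8%) and 3396 lower (30.1%). In 3958 genes (35.1%) every organoid library lay above every tissue library, and in 3240 genes (28.8%) every tissue library lay above. Tested against a 2-fold change rather than against none, 2090 genes (18.5%) remained higher and 1962 (17.4%) lower. A count of members called in any gene group below has to be read against these shares, since a share near the background is not a result about the group.

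What counts as higher or lower rests in part on how libraries of so unlike makeup are put on 1 scale. The median log2 change over all genes tested was 0.19 with TMM scaling. It moved up by 0.31 with plain library totals, up by 0.85 when the libraries were scaled on 18 genes that all gut epithelial cells express, and fell by 1.92 when they were scaled on 38 ribosomal protein genes. Of the calls, 52.8% were higher in organoids with TMM, 62.4% with library totals, 76.6% with the epithelial genes and 7.17% with the ribosomal protein genes. The epithelial scale sets the summed counts of the 18 genes equal in all libraries. These genes did not move together (below), and whether their sum follows the amount of epithelial RNA was not tested. Of the 38 gene lists with at least 5 tested genes, the balance between genes called higher and lower was reversed in 5 on the epithelial scale and in 10 on the ribosomal scale.

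**Figure D1:**
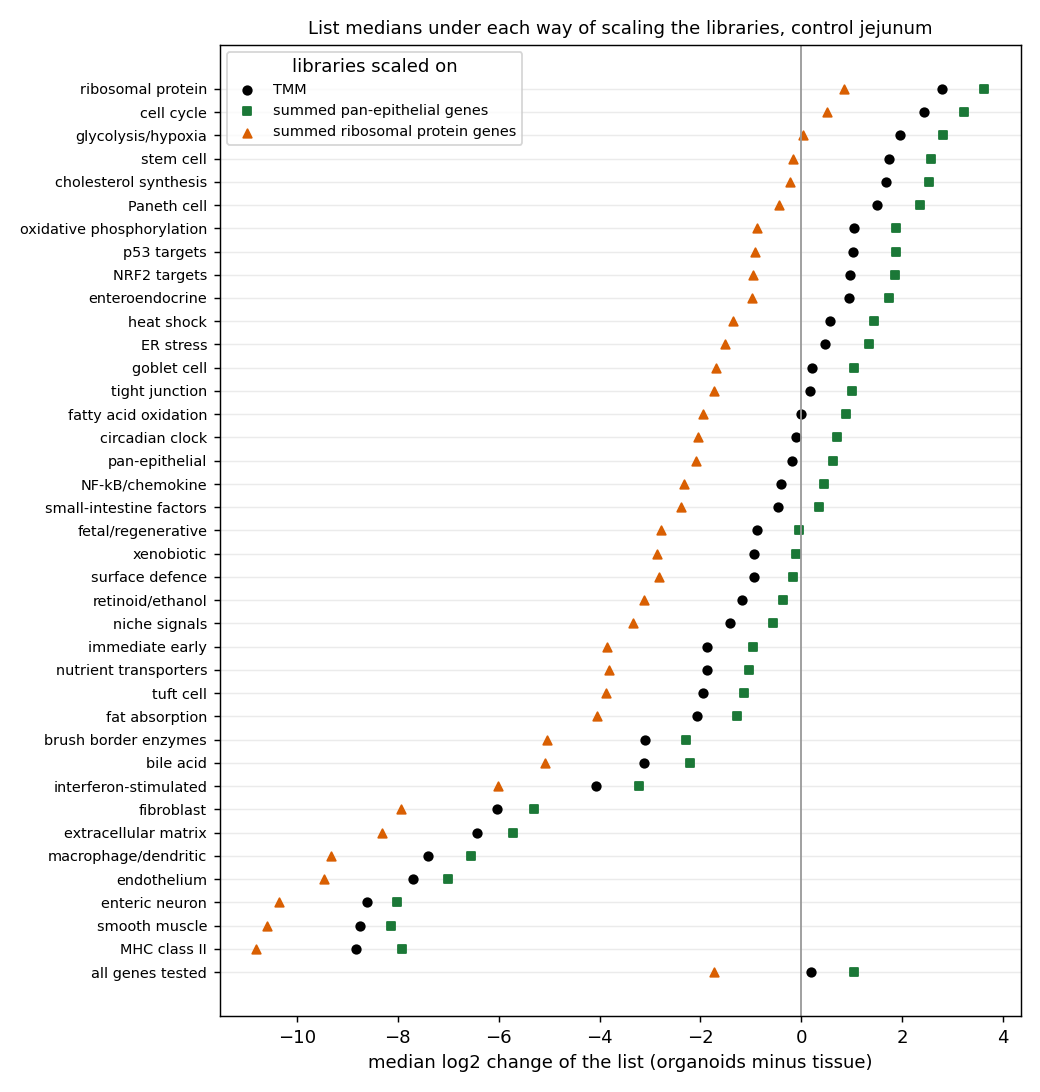
Median log2 change (organoids minus tissue, x axis) of each gene list with at least 5 tested genes and of all genes tested (y axis), with the libraries scaled by TMM (circles), on summed pan-epithelial genes (squares) or on summed ribosomal protein genes (triangles). A change of scale shifts all lists by nearly the same amount, so their order had to stay much alike. The medians of the lists from stem cell down to small-intestine factors are above 0 under 1 scale and below 0 under another.

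The epithelial identity of both kinds of sample was checked on markers first. Epcam, an adhesion molecule of epithelial cells (chr17:87635979-87651129), stood at 1048, 1165, 1029 and 1099 CPM in the 4 organoid libraries and at 3214, 2324 and 3681 CPM in the 3 tissue libraries. Cdh1, which encodes E-cadherin, was at 738 to 852 CPM in organoids and 1000.3 to 1551 CPM in tissue. Both were abundant in every library, and both were lower in organoids (log2 changes -1.50 ± 0.21 and -0.77 ± 0.20; edgeR adjusted p = 3.04e-05 and 0.00423), although Cdh1 lay slightly higher in organoids on the epithelial scale. The 18 pan-epithelial genes were split: 7 were higher in organoids, 8 lower and 3 were not called, with a median of -0.18 that turns to 0.12 with plain totals. Those higher were the keratins Krt8, Krt18 and Krt19, the homeobox factors Cdx1 and Cdx2, the nuclear receptor Hnf4a and the splicing factor Esrp1, and on the ribosomal scale all of these but Cdx2 lay below tissue. Krt18 was no longer called without any 1 of the organoid libraries or without tissue library 1 or 3 (edgeR adjusted p = 0.0509 to 0.127). Cdx2, which specifies intestinal epithelium, reached 186 to 252 CPM in organoids against 31.3 to 54.6 CPM in tissue (log2 change 2.42 ± 0.23; edgeR adjusted p = 1.18e-06). Lgals4 (galectin 4) and Vil1 (villin, the actin bundler of microvilli) were the lowest of the list, at 449 to 831 against 2345 to 4099 CPM and at 267 to 395 against 1180.0 to 1433 CPM. In summed counts the list took 0.842 to 1.04% of an organoid library and 1.19 to 1.52% of a tissue library.

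Genes of the muscle, connective tissue, vessels, nerves and immune cells of the gut wall had the lowest list medians in organoids. In samples of bulk RNA such as these, fewer cells of a type and less RNA per cell cannot be told apart. Many of these genes passed the low-count filter only through tissue, so that they had to differ; their counts are a description of what organoids lack, and several genes in each list were too low to test.

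Smooth muscle genes were among the lowest. Acta2, the smooth muscle actin (chr19:34241090-34255590), had 1 count in all 4 organoid libraries together and 285, 1085 and 634 CPM in tissue, a ratio of tissue to organoids of 13458 (95% interval of counting 2415 to 531566). Myh11, the myosin heavy chain of smooth muscle, had 2 organoid counts and 137, 355 and 378 CPM in tissue, and Tagln (transgelin) 1 organoid count and 125, 178 and 272 CPM. Synpo2, an actin-binding protein of muscle, had no count in organoids and was at 35.3 to 159 CPM in tissue, at least 642-fold higher there against a floor of 3 counts over the organoid group. The tissue libraries themselves differed, with tissue library 1 lowest in each of these 4 genes. Of 17 muscle genes listed, 15 were tested and 14 were lower in organoids (median log2 change -8.75, or -8.49 with genes absent from organoids set at their bound, against 0.19 for all genes). The exception was Tpm1, a tropomyosin that many cell types make, with 414 to 497 CPM in organoids and 237 to 862 CPM in tissue (edgeR adjusted p = 0.467), which was called lower without tissue library 1 (adjusted p = 0.0224).

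Connective tissue gave the same picture. Col1a2, a chain of type I collagen, was at 0, 0.872, 1.22 and 2.26 CPM in organoids and 64.8, 111 and 78.1 CPM in tissue (log2 change -6.26 ± 0.51; edgeR adjusted p = 3.56e-07). Col1a1 and Col3a1 were at 0 to 1.63 and 0 to 1.22 CPM in organoids against 24.4 to 88.04 and 11.8 to 85.01 CPM in tissue. Organoid library 1 held no count of any of these 3 collagens. All 16 matrix genes that could be tested, of 20 listed, were lower in organoids, and 5 of the listed genes had no organoid count. Among fibroblast markers 9 of 10 tested were lower: the proteoglycan Dcn (decorin) was at 0 to 0.813 CPM against 18.5 to 88.04 CPM, and Pdgfra, a receptor that marks the fibroblasts under the epithelium, at 0 to 0.61 against 6.25 to 13.7 CPM.

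Of vessel markers 10 of 18 were tested, and 7 were lower and 1 was higher. Kdr, a receptor for vascular endothelial growth factor, had 1 organoid count and 15.6 to 24.4 CPM in tissue, and Pecam1, an adhesion molecule of endothelium, 0.347 to 1.74 CPM against 6.07 to 19.4 CPM. The gene that went the other way was Lyve1, known as a marker of lymphatic endothelium, at 17.5, 27.7, 7.93 and 14.4 CPM in organoids and 2.52, 1.52 and 7.81 CPM in tissue (log2 change 1.94 ± 0.59; edgeR adjusted p = 0.0112). Without tissue library 1 Lyve1 was not called (edgeR adjusted p = 0.0601). It was present in every organoid library while Cdh5, which all endothelium expresses, had no organoid count. The nerve marker Uchl1 had no organoid count and 51.3, 95.6 and 96.9 CPM in tissue, at least 546-fold higher. Of 17 nerve genes listed 6 were tested and 5 were lower. Nefm went the other way (log2 change 2.28) and was not called. Without organoid library 1 or without tissue library 1, 1 gene of this list was called higher. Markers of the pacemaker cells of Cajal did not separate the groups: Ano1, Etv1 and Kit were at 4.11 to 6.50, 1.22 to 4.80 and 10.2 to 21.1 CPM in organoids and 1.56 to 10.6, 1.68 to 10.6 and 10.6 to 19.5 CPM in tissue, and none of the 3 was called.

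Fat cell genes depended on the tissue library. Fabp4, the fatty acid binding protein of adipocytes, had no organoid count and 21.9, 326 and 334 CPM in the 3 tissue libraries, and was not called without tissue library 2 (edgeR adjusted p = 0.139). Adipoq (adiponectin) had no count in organoids or in tissue library 1, and 0, 69.8 and 18.8 CPM over the tissue libraries. Tissue library 1 thus carried little of this RNA, and only 3 of 11 adipocyte genes passed the filter, all of them lower in organoids. Without tissue library 1, 9 adipocyte genes were called lower.

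Most immune cell genes were near or at 0 in organoids. The complement gene C1qb of macrophages and the chemokine receptor gene Cx3cr1 had no organoid count and 10.9 to 24.2 and 14.1 to 20.2 CPM in tissue, at least 119-fold and 117-fold higher. Of 9 macrophage and dendritic cell genes tested, 7 were lower in organoids. The 2 not called were Mrc1 (log2 change -0.71) and Cd14, which went the other way (1.02). Without tissue library 2, 1 gene of this list was called higher. The plasma cell genes Igj (the joining chain of secreted antibodies) and Mzb1 were at 0 to 0.654 and 0 CPM in organoids and 57.7 to 92.6 and 12.1 to 33.7 CPM in tissue. T cell genes were scarce in both groups: none of 15 passed the filter, 12 had no organoid count, and Cd3d, a chain of the T cell receptor complex, was at 1.68 to 11.7 CPM in tissue. Without tissue library 1, 3 T cell genes were called lower.

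Genes of MHC class II, which present antigen to helper T cells and can be made by immune cells and by gut epithelium, were lower in organoids in all 6 of 6 cases tested, of 10 listed. Cd74, the invariant chain, was at 0.173, 0.218, 0 and 0.823 CPM in organoids and 141, 80.5 and 1842 CPM in tissue (log2 change -11.01 ± 1.80; edgeR adjusted p = 0.00234). H2-Ab1 was at 0.823 to 2.83 CPM in organoids and 109, 135 and 1720.5 CPM in tissue. Tissue library 3 stood far above the other tissue libraries in both. The list took 0.000521 to 0.00071% of the counts in organoids and 0.0318 to 0.406% in tissue, whereas the macrophage list took 0.0188 to 0.0252% in tissue and lay within a narrow range. Which cells made the class II transcripts was not tested.

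**Figure D2:**
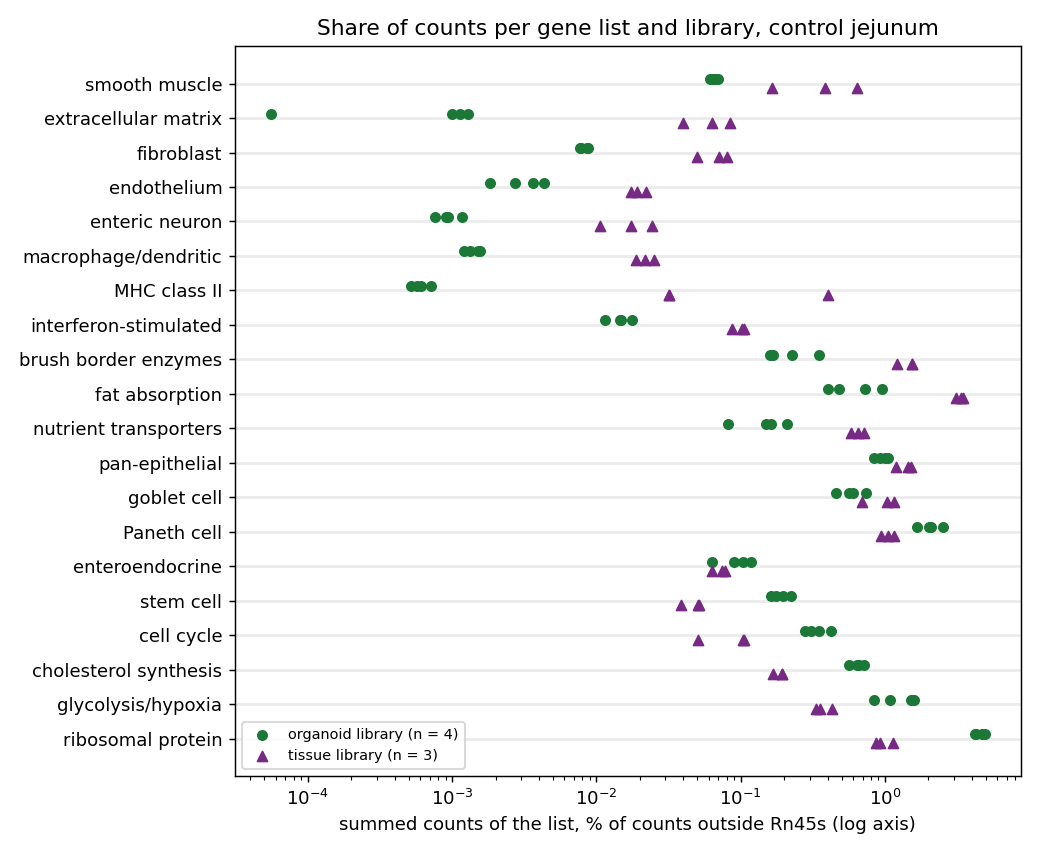
Summed counts of the genes of each list as a percentage of counts outside Rn45s (x axis, log scale), 1 point per library, circles for the 4 organoid libraries and triangles for the 3 tissue libraries of control jejunum. Smooth muscle, matrix, vessel, nerve, macrophage, MHC class II, interferon and enterocyte lists lay higher in every tissue library, and stem cell, cell cycle, cholesterol, glycolysis and ribosomal protein lists in every organoid library.

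Ligands and inhibitors of the stem cell niche took both directions. Grem1, an inhibitor of bone morphogenetic proteins, had no organoid count and 6.07 to 10.1 CPM in tissue (at least 55.4-fold higher there), and Sfrp1, a secreted binder of Wnt proteins, had 2 organoid counts and 36.4 to 61.7 CPM in tissue. The 3 genes called higher were Wnt3, Tgfa and Bmp7. Wnt3, the Wnt ligand of Paneth cells, was at 9.71, 13.1, 11.99 and 9.46 CPM in organoids and 0, 1.52 and 2.34 CPM in tissue (log2 change 3.07 ± 0.67; edgeR adjusted p = 0.00125). Tgfa, a ligand of the epidermal growth factor receptor, was at 3.50 to 6.24 against 0 to 0.781 CPM, and Bmp7 at 7.52 to 9.54 against 0 to 1.68 CPM. Of 29 niche genes listed only 12 were tested, 3 were higher and 7 lower, among the latter Bmp2, a bone morphogenetic protein, at 17.1 to 35.3 against 68.3 to 111 CPM, and Dll1, a Notch ligand, at 15.7 to 29.5 against 36.7 to 44.02 CPM, both named after their values were seen. Dll1 was not lower on the epithelial scale. In all, 14 of the listed genes, among them Wnt4, had no organoid count.

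Interferon-stimulated genes were low in organoids almost without exception. These genes are switched on by type I, II or III interferons and encode antiviral proteins; many carry in their promoters the interferon-stimulated response element. Of 28 listed, 20 were tested and 19 were lower in organoids, none higher, and in all 20 every tissue library lay above every organoid library (28.8% of all genes tested did so). Some members, such as Rsad2 and Oas3 (below), had almost no organoid counts and passed the low-count filter only through tissue, so that they had to differ. For those the count is a description and no test. The 1 gene not called was Ifih1, a sensor of double-stranded RNA (16.9 to 26.8 against 29.7 to 34.5 CPM; edgeR adjusted p = 0.0672), which is named here because it is the exception and which was called without organoid library 2 (edgeR adjusted p = 0.0368). The median log2 change was -4.08 and -3.23 on the epithelial scale.

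The sequences upstream of 4 of these genes are given below. Only promoters that hold the motif searched for were printed, so that these 4 share it was set by the choice. In RefSeq (GRCm38.p6) a promoter was found for 19 of the 28 listed genes, and 9 of them (47.4%) held the letters GAAANNGAAA on either strand within the 250 bases before the gene start, 8 of them called lower. Among all 27025 genes with a promoter 936 (3.46%) did. The list was drawn up from genes known to answer interferon, so this contrast describes the list and is no result of these samples. This pattern overlaps the motif of the interferon regulatory factors. A match describes letters and is no proof of binding. The 250 bases before the start are given 5′ to 3′ in the direction of the gene, with matches in capitals.
Rsad2 (chr12:26456453-26456702, minus strand): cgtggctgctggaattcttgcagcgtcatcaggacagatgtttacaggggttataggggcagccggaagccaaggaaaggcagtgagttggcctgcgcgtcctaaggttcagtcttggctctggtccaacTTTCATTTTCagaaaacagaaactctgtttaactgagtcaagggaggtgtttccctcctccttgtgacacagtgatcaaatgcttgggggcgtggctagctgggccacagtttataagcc
Oas3 (chr5:120777660-120777909, minus strand): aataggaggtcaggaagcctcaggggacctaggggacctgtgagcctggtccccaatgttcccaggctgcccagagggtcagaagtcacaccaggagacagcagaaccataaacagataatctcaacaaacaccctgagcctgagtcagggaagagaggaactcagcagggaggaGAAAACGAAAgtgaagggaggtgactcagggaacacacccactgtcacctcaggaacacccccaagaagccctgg
Ifit1 (chr19:34640639-34640888, plus strand): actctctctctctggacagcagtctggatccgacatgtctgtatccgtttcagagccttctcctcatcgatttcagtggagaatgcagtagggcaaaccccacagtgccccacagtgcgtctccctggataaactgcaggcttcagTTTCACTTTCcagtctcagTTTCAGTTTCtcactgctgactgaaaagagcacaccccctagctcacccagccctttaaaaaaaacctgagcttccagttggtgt
Isg15 (chr4:156200819-156201068, minus strand): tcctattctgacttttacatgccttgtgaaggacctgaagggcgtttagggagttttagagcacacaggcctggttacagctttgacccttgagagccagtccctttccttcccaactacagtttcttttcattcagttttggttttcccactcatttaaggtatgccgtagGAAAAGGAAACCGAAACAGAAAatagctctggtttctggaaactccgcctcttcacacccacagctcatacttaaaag
The match nearest the start lies 120 bases before it in Rsad2, 75 in Oas3, 85 in Ifit1 and 66 in Isg15, and Isg15 holds 3 overlapping matches.

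The values of these 4 genes did not overlap between the groups. Rsad2 (viperin, which blocks the budding of viruses) had 3 organoid counts in all, and 84.2, 47.1 and 109 CPM in tissue, a ratio of tissue to organoids of 537 (95% interval of counting 184 to 2602). Oas3, which makes the activator of an RNA-cutting enzyme, had 1 organoid count and 48.8, 27.3 and 47.7 CPM in tissue, a ratio of 831 (95% interval of counting 149 to 32819.9). Ifit1, which binds viral RNA, was at 3.12, 1.31, 0.203 and 4.52 CPM in organoids and 50.5, 94.1 and 64.1 CPM in tissue (log2 change -4.87 ± 0.52; edgeR adjusted p = 4.28e-06). Isg15, a ubiquitin-like protein, was at 0.61 to 2.67 CPM against 12.6 to 18.8 CPM (log2 change -3.57 ± 0.55; edgeR adjusted p = 7.46e-05). Apol9a, which is outside the list, had no organoid count and 85.01 to 136 CPM in tissue, at least 779-fold higher. Immune cell markers moved in the same direction as these genes, with summed shares of 0.00122 to 0.00156% in organoids and 0.0188 to 0.0252% in tissue for macrophages and dendritic cells, and their part in the result was not tested.

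Enterocyte genes, the products of mature villus cells, were much lower in organoids. Lct, the lactase that splits milk sugar (chr1:128284756-128328318), stood at 5.55, 11.99, 2.44 and 6.99 CPM in the organoid libraries and at 4998, 4622 and 3486 CPM in the tissue libraries, 649-fold lower in organoids (log2 change -9.34 ± 0.44; edgeR adjusted p = 7.16e-09). Anpep, the aminopeptidase N of the brush border, was at 40.2, 44.7, 61.4 and 45.7 CPM in organoids and 5817, 2289 and 6668 CPM in tissue, 103-fold lower (log2 change -6.68 ± 0.37). Every tissue library lay far above every organoid library in both genes. Sis, the sucrase-isomaltase, went the other way, with 869, 2175, 619 and 1184 CPM in organoids and 566, 314 and 346 CPM in tissue (log2 change 1.56 ± 0.38; edgeR adjusted p = 0.00326), all organoid libraries above all tissue libraries although it turned to lower on the ribosomal scale and was not called without tissue library 2 (edgeR adjusted p = 0.0563). Of 16 brush border enzymes 15 were tested, 14 (93.3%) were lower and Sis alone was higher. Their median log2 change was -3.10, and -2.29 on the epithelial scale.

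Transporters followed for the most part. Slc15a1, the peptide transporter PEPT1 (chr14:121459621-121505252), was at 3.64, 5.01, 5.69 and 5.35 CPM in organoids and 2256, 1356 and 2998 CPM in tissue, 446-fold lower (log2 change -8.80 ± 0.34; edgeR adjusted p = 1.54e-09). The sodium-glucose transporter Slc5a1 (SGLT1) was at 877, 1242, 320.3 and 1032 CPM against 4034, 3091 and 2911 CPM, and the glucose exit transporter Slc2a2 (GLUT2) at 14.8 to 78.3 CPM against 169.6 to 361 CPM (log2 changes -1.95 ± 0.35 and -2.32 ± 0.43). The sugar carriers were 3.85-fold and 4.98-fold lower, a smaller gap than that of PEPT1. Slc2a5, the fructose transporter, was at 37.2 to 66.4 CPM in organoids and 18.2 to 41.4 CPM in tissue and was not called (edgeR adjusted p = 0.058), though it was without organoid library 3 or tissue library 3 (adjusted p = 0.0402 and 0.0381). Of 16 transporters tested 11 were lower and 2 higher. The 2 higher were Cybrd1, the iron reductase of the brush border, at 32.8, 22.7, 8.74 and 12.1 CPM against 0, 12.1 and 0.781 CPM, and Slc40a1 (ferroportin, the iron exporter) at 15.4, 42.5, 9.76 and 5.14 CPM in organoids with 3 counts in tissue, a ratio of organoids to tissue of 18.98 (95% interval of counting 6.49 to 92.04). Slc11a2, the iron importer of the same list, hardly differed (log2 change -0.08). Organoid libraries varied widely in Cybrd1 and Slc40a1, and Cybrd1, which overlapped between the groups, was not called without organoid library 1, tissue library 1 or tissue library 3 (edgeR adjusted p = 0.0544 to 0.0942).

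Genes that package dietary fat were lower for the most part. Apoa1, the main protein of high density lipoprotein, was at 288, 427, 602 and 692 CPM in organoids and 13705, 7722 and 12669 CPM in tissue (log2 change -4.50 ± 0.33; edgeR adjusted p = 1.64e-07). Apob, the backbone of the chylomicron, was at 53.6 to 88.8 CPM against 417 to 706 CPM, and Apoc3, an inhibitor of fat clearance, at 48.8 to 114 CPM against 4550.5 to 6808 CPM. The fatty acid transporter Slc27a4 was at 80.6 to 127 against 2037 to 2945 CPM. Of 21 fat absorption genes 17 were lower and 1 was higher, namely Sar1b, a small GTPase that loads chylomicrons into vesicles (158 to 222 against 83.3 to 155 CPM; log2 change 0.79 ± 0.24; edgeR adjusted p = 0.00983), which was lower on the ribosomal scale and was not called without tissue library 3 (adjusted p = 0.0543). The 3 fat absorption genes not called included Fabp1 and Scarb1, whose log2 changes were positive (1.74 and 1.58). In bile acid handling, the export subunit Slc51a was at 37.6 to 91.7 CPM against 1041 to 3299.6 CPM (log2 change -5.13 ± 0.40). Fabp6, the bile acid binding protein of the ileum, was at 469, 1.52 and 2507 CPM in the 3 tissue libraries and at 1.03 to 20.3 CPM in organoids; it was called lower (edgeR adjusted p = 0.0311) although tissue library 2 lay within the organoid range, and was not called without any 1 of the organoid libraries (adjusted p = 0.0565 to 0.0733). The tissue libraries therefore differed in a marker of the lower small intestine. Slc10a2, the ileal bile acid importer, was too low to test in both groups.

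**Figure D3:**
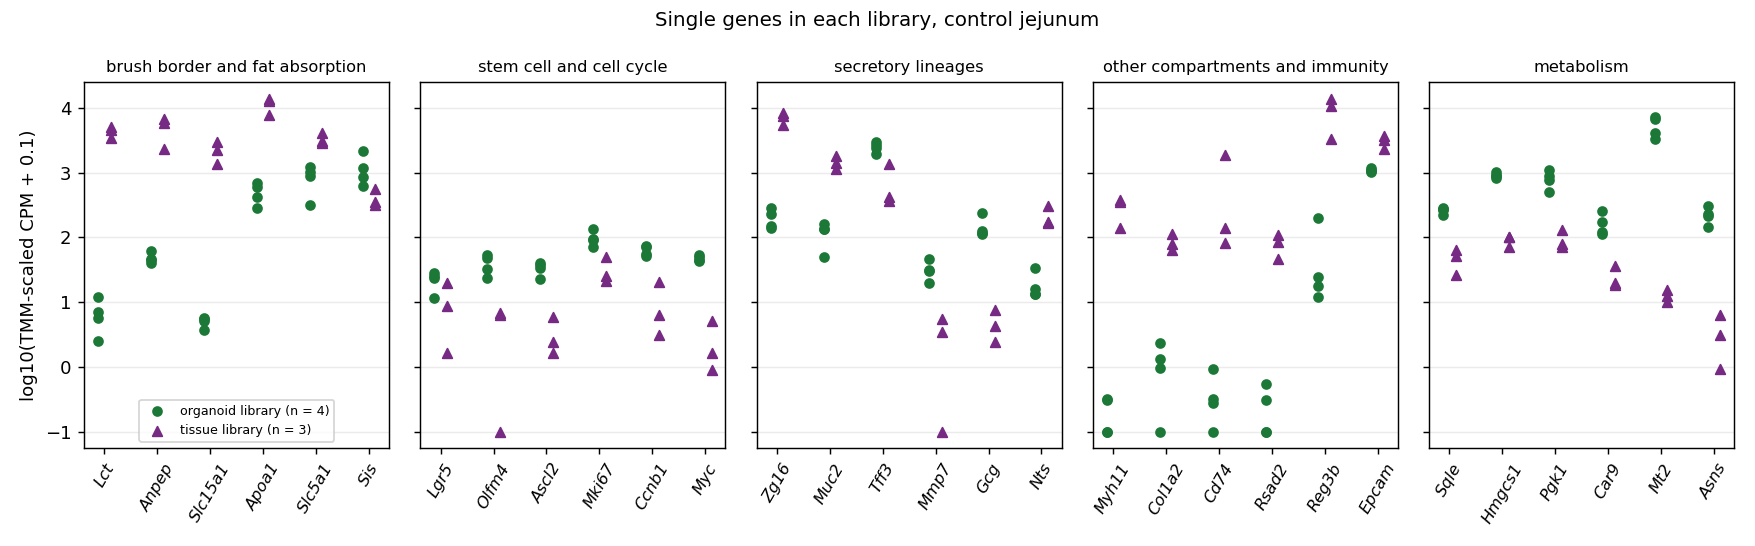
Levels of 30 genes as log10 of TMM-scaled CPM plus 0.1 (y axis), 1 point per library, circles for the 4 organoid libraries and triangles for the 3 tissue libraries. Genes at 0 lie at -1. Lct, Anpep, Slc15a1 and Zg16 are far below tissue in every organoid library, Sqle, Mt2 and Asns above, and Lgr5 overlaps.

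Stem cell genes were higher in organoids as a group, although the best known was not called. Lgr5, the receptor for R-spondins that marks crypt stem cells (chr10:115450311-115587780), was at 28.1, 25.1, 23.2 and 11.3 CPM in organoids and 19.4, 1.52 and 8.59 CPM in tissue (log2 change 1.03 ± 0.51; edgeR adjusted p = 0.0921), and tissue library 1 overlapped the organoids. Without tissue library 1 it was called higher (adjusted p = 0.0173), as it was with plain totals and on the epithelial scale, whereas on the ribosomal scale its sign turned. Ascl2, a transcription factor of stem cells, was at 39.9, 22.5, 33.3 and 36.8 CPM in organoids and 5.89, 1.52 and 2.34 CPM in tissue (log2 change 3.24 ± 0.45; edgeR adjusted p = 3.60e-05). Olfm4, a secreted protein of stem cells, was at 23.8 to 53.7 against 0 to 6.73 CPM, Aqp4 (a water channel) at 64.4 to 106 against 1.56 to 7.57 CPM, and Lrig1, a brake on growth factor receptors, at 55.7 to 81.3 against 0 to 12.1 CPM. Of 18 stem cell genes tested 13 were higher (72.2%, background 33.8%) and 1 lower. The median log2 change was 1.74, but -0.17 on the ribosomal scale. Tnfrsf19 (Troy), a Wnt target, was the 1 lower gene, with 3 counts in organoids and 15.1, 4.55 and 10.2 CPM in tissue.

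Cell cycle genes rose more evenly. Mki67, the antigen Ki-67 of dividing cells, was at 90.7, 93.3, 133 and 69.7 CPM in organoids and 21.3 to 48.8 CPM in tissue (log2 change 1.57 ± 0.31; edgeR adjusted p = 5.97e-04). Ccnb1, a cyclin of mitosis, was at 51.4 to 72.96 CPM against 3.04 to 20.2 CPM (log2 change 2.56 ± 0.41), and Aurkb, a mitotic kinase, at 35.8 to 48.2 CPM against 0 to 9.11 CPM. Top2a, which untangles DNA, was at 339.8 to 485 CPM against 104 to 285 CPM. The groups did not overlap in any of these 4 genes. Of 30 genes tested 25 were higher (83.3%) and none lower, with a median of 2.43 that was 0.51 on the ribosomal scale, where 9 genes were called higher and 7 lower, and Mki67 and Top2a turned to lower. Myc, a transcription factor of growth and a Wnt target, was at 44.9, 49.05, 52.4 and 42.98 CPM in organoids and 5.05, 1.52 and 0.781 CPM in tissue (log2 change 4.19 ± 0.44; edgeR adjusted p = 2.93e-06).

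Each secretory lineage held genes called in both directions, as did all genes tested (33.8% higher and 30.1% lower). Among goblet cell genes 6 of 12 were higher (50%) and 5 lower (41.7%). Zg16, a lectin of the mucus (chr7:127050156-127087328), was at 140.1, 285, 231 and 152 CPM in organoids and 8269.8, 7432 and 5365 CPM in tissue, 34.8-fold lower (log2 change -5.12 ± 0.31; edgeR adjusted p = 2.93e-08), and Muc2, the gel-forming mucin, at 49.8, 136, 133 and 159 CPM against 1790.1, 1415 and 1149 CPM (log2 change -3.60 ± 0.33). The trefoil peptide Tff3 was at 1933, 2971, 2379 and 2710.4 CPM in organoids and 420.0, 1349 and 363 CPM in tissue (log2 change 1.82 ± 0.41; edgeR adjusted p = 0.00169), and Spink4, a protease inhibitor of goblet cells, at 1225 to 1899.7 CPM against 288 to 331 CPM (log2 change 2.40 ± 0.22). Goblet cell products were thus both far below and far above tissue in the same organoids, and of these Tff3 turned to lower on the ribosomal scale. The factor Spdef, which drives goblet cell maturation, was lower (11.97 to 25.7 against 30.4 to 66.5 CPM; log2 change -1.37 ± 0.34). The count of goblet genes called higher fell from 6 to 3 when organoid library 2, organoid library 3 or tissue library 3 was left out, and the count called lower from 5 to 3 without tissue library 2.

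Paneth cell genes were higher in 10 of 15 cases and lower in 3. Their summed share was 1.67 to 2.52% in organoids and 0.937 to 1.16% in tissue. Lyz1, the lysozyme of Paneth cells, was at 833 to 1953 CPM in organoids and 962 to 1310.3 CPM in tissue and was not called (edgeR adjusted p = 0.383). Mmp7, the protease that activates defensins, was at 29.7, 46.7, 19.7 and 31.5 CPM against 3.37, 0 and 5.47 CPM (log2 change 3.20 ± 0.54; edgeR adjusted p = 1.70e-04). Ang4, an antimicrobial ribonuclease, was at 149.6 to 359.5 against 69.01 to 153 CPM (log2 change 1.005 ± 0.32) but turned to lower on the ribosomal scale and was not called without tissue library 1 (edgeR adjusted p = 0.063). Mptx2, a pentraxin, was lower at 2.18 to 15.1 CPM against 20.2 to 67.2 CPM (log2 change -2.80 ± 0.56). The defensin genes are near-identical copies, so reads may have been split among them, and values of single copies such as Defa20 (higher) and Defa21 (lower) are uncertain. Defa21 was not called without tissue library 1 or 3 (edgeR adjusted p = 0.0503 to 0.0535). The list's median of 1.51 was -0.44 on the ribosomal scale.

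Single hormone genes differed in both directions. Gcg, which encodes glucagon-like peptides, was at 115, 239, 113 and 127 CPM in organoids and 4.21, 7.59 and 2.34 CPM in tissue, 34.8-fold higher (log2 change 5.12 ± 0.44; edgeR adjusted p = 5.72e-07). Chgb (chromogranin B, a granule protein) was at 132 to 304 against 10.1 to 19.7 CPM, yet Chga (chromogranin A) was lower at 32.3 to 46.8 against 42.5 to 100.2 CPM. Nts (neurotensin), a hormone made mostly by villus cells, was at 13.2, 33.1, 13.4 and 15.6 CPM in organoids and 302, 168 and 174 CPM in tissue, 11.5-fold lower (log2 change -3.52 ± 0.33; edgeR adjusted p = 1.52e-06). Sct (secretin), also known from villus cells, was at 18.1 to 25.5 against 65.3 to 92.6 CPM (log2 change -1.85 ± 0.23). Cpe, a processing enzyme that neurons make too, was lower at 13.2 to 27.2 against 145 to 250.5 CPM. Of 21 genes tested 9 were higher (42.9%, background 33.8%) and 5 lower (23.8%, background 30.1%), with a median of 0.95 (-0.98 on the ribosomal scale). Neurog3, the factor that starts the lineage, was at 2.47 to 7.80 CPM in organoids and 0 to 8.42 CPM in tissue and was not called.

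Tuft cell genes were scarce. Of 18 listed, 8 were tested and 4 were lower in organoids, none higher. Ptgs1, the cyclooxygenase 1 that other cells of the gut wall also make, was at 0.654 to 1.65 against 60.7 to 63.96 CPM, and the taste channel Trpm5 at 2.25, 3.49, 1.02 and 2.26 against 24.4, 22.8 and 0.781 CPM, where tissue library 3 was as low as the organoids and without tissue library 1 the gene was not called (edgeR adjusted p = 0.0613). Dclk1, a widely used tuft cell marker, was at 3.25 to 6.98 against 3.37 to 10.9 CPM and was not called (edgeR adjusted p = 0.354). Pou2f3, the factor that makes tuft cells, was too low to test. For M cells, which sample the gut content for immune cells, Gp2 had no count in either group, and Spib had 67 organoid counts and none in tissue, at least 3.48-fold higher against the floor of 3 counts, a call that was lost on the ribosomal scale. Of genes known from fetal or regenerating epithelium 2 of 11 were higher and 5 lower, the latter 3 without any 1 of the organoid libraries. Areg (amphiregulin, a growth factor) was at 184, 119.9, 28.5 and 186 CPM in organoids and 10.9, 0 and 0.781 CPM in tissue (log2 change 4.86 ± 0.99; edgeR adjusted p = 0.00237), and Ly6a (Sca-1) at 1.63 to 12.2 against 6.07 to 35.2 CPM (log2 change -1.96 ± 0.62), the latter not called without tissue library 3 (adjusted p = 0.15).

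Defence proteins at the mucosal surface were led by the Reg lectins. Reg3b (chr6:78370657-78373466), a bactericidal lectin, was at 11.8, 17.7, 201 and 24.7 CPM in organoids and 13730.2, 10630.3 and 3271 CPM in tissue (log2 change -7.17 ± 1.38; edgeR adjusted p = 0.0044). Reg3g was at 76.7 to 152 against 414 to 2298 CPM (log2 change -3.65 ± 0.47). In the same libraries Reg3a and Reg4 were higher in organoids, at 77.8 to 255 against 20.3 to 74.9 CPM and at 336 to 949 against 198 to 304 CPM (log2 changes 1.62 ± 0.47 and 1.41 ± 0.30; edgeR adjusted p = 0.00926 and 0.00114), though both were lower on the ribosomal scale. The family was thus divided. Organoid library 3 had 201 CPM of Reg3b and the other organoid libraries 11.8 to 24.7 CPM. Saa1, an acute phase protein, was at 0 to 1.31 against 9.11 to 17.7 CPM.

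The study asked about intestinal permeability, and tight junctions seal the epithelial sheet. Their genes took different directions. The claudins that form pores for small ions and water differed from each other: Cldn15, the sodium pore of the villus, was at 697, 758, 520.5 and 612 CPM in organoids and 3636, 2814 and 2755 CPM in tissue (log2 change -2.25 ± 0.21; edgeR adjusted p = 1.11e-06), whereas Cldn2, the pore of the crypt, was at 243, 175, 156 and 174 CPM against 78.3, 22.8 and 77.4 CPM (log2 change 1.60 ± 0.32; edgeR adjusted p = 6.58e-04). Cldn3, a sealing claudin, was higher at 389 to 532 against 42.97 to 105 CPM (log2 change 2.68 ± 0.28). Ocln (occludin) and Tjp1 (ZO-1, the scaffold) were lower at 60.6 to 75.6 against 65.3 to 128 CPM and 41.3 to 58.2 against 85.9 to 105 CPM (log2 changes -0.60 ± 0.23 and -0.95 ± 0.21), with the occludin difference turning to higher on the epithelial scale and that of Cldn2 to lower on the ribosomal scale. Occludin was not called without organoid library 2 or 3 or tissue library 1 or 3 (edgeR adjusted p = 0.0637 to 0.157). Of 18 junction genes 3 were higher, 7 lower and 8 not called. The balance turned on the epithelial scale, with 9 higher and 4 lower, and was 1 higher and 15 lower on the ribosomal scale.

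**Figure D4:**
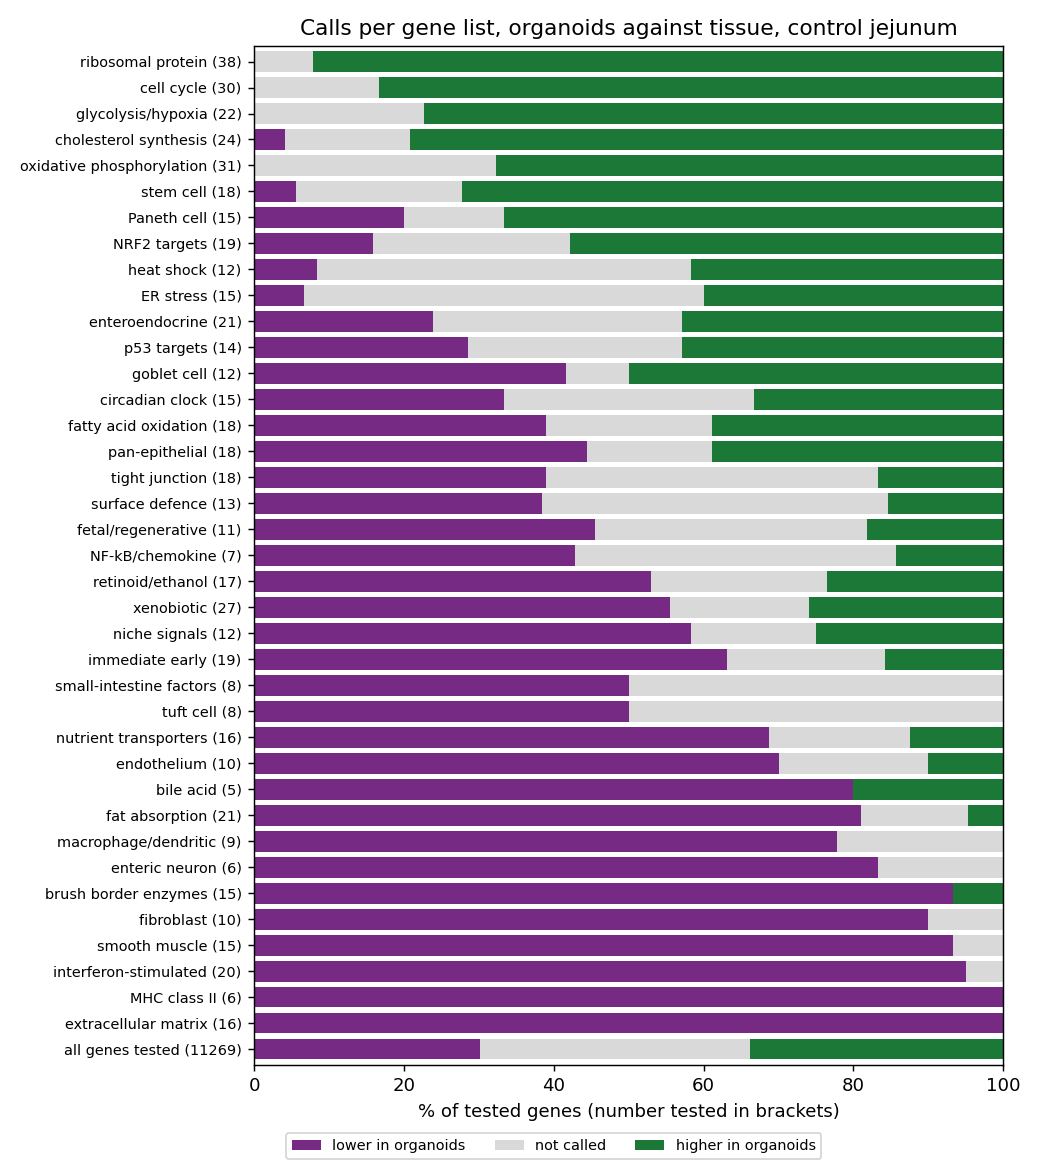
Share of the tested genes of each of the 38 lists with at least 5 tested genes (x axis, percent) called higher in organoids, called lower or not called in control jejunum by the edgeR test, with the number tested in brackets and all 11269 genes in the bottom bar. Of the lists plotted, matrix and MHC class II genes were all lower, and ribosomal protein and cell cycle genes most often higher, against 33.8% higher and 30.1% lower of all genes.

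Cholesterol synthesis genes rose nearly together. Cells make these enzymes when the sterol sensor SREBP2 is active, which is when they take up little cholesterol. Hmgcs1, which makes the precursor of mevalonate, was at 826, 1009, 909.9 and 885 CPM in organoids and 69.9, 102 and 102 CPM in tissue (log2 change 3.32 ± 0.22; edgeR adjusted p = 6.68e-08). Sqle (squalene epoxidase) was at 225 to 283 against 25.8 to 63.3 CPM, and Nsdhl, a late enzyme of the path, at 160.3 to 208 against 1.56 to 13.7 CPM. Of 24 genes 19 were higher (79.2%) and 1 lower. The median of 1.69 was -0.23 on the ribosomal scale.

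Glycolysis and hypoxia genes rose as well. Pgk1, a kinase of glycolysis (chrX:106187100-106203699), was at 1107, 899.9, 505 and 774 CPM in organoids and 70.7, 132 and 79.7 CPM in tissue (log2 change 3.15 ± 0.31; edgeR adjusted p = 1.78e-06). Ndrg1, a hypoxia target, was at 944, 1019.8, 492 and 836 CPM against 47.97, 74.4 and 47.7 CPM, 14.8-fold higher (log2 change 3.89 ± 0.30), and Pdk1, which turns pyruvate away from mitochondria, at 142 to 294 against 7.57 to 27.3 CPM. The glucose transporter Slc2a1 (GLUT1) was at 51.2 to 105 against 4.55 to 13.3 CPM. Ldha, the lactate dehydrogenase, was at 1969 to 3848 against 1243 to 1627 CPM and turned to lower on the ribosomal scale. Of 22 genes 17 were higher and none lower, with a median of 1.95. On the ribosomal scale the median was 0.02, with 9 genes higher and 5 lower. In Pgk1, Ndrg1, Pdk1 and Slc2a1, organoid library 3 was the lowest of the organoid libraries. Gapdh was at 4.06 to 11.1 against 3.91 to 4.55 CPM and was not called (called higher without organoid library 3, edgeR adjusted p = 0.042), and this gene has many near-identical pseudogene copies; it is named although outside the rule because it is often used as a reference gene.

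The hypoxia-inducible factors bind a short core in such promoters. The letters ACGTG, on either strand, were found in the 250 bases before the start of 13 of the 21 listed genes with a RefSeq promoter (61.9%), 11 of them called higher, and of 4998 of 27025 genes (18.5%). The list holds known hypoxia targets, so this contrast describes the list and is no result of these samples. Of all 22 tested genes of the list 17 were called higher. A core this short also occurs by itself in many promoters and overlaps the E-box CACGTG. Pgk1 and Car9, the carbonic anhydrase 9 of hypoxic cells, are shown because both are textbook targets; Car9 is outside the rule for naming genes.
Pgk1 (chrX:106186850-106187099, plus strand): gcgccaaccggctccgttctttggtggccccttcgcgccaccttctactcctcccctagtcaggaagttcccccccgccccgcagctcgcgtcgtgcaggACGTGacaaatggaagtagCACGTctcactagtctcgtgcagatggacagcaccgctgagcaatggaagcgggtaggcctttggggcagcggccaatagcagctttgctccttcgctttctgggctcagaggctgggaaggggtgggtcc
Car9 (chr4:43506776-43507025, plus strand): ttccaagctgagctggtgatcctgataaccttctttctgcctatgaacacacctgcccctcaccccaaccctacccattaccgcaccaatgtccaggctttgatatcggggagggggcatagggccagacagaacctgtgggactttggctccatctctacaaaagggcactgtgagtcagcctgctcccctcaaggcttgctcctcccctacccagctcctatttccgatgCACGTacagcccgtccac
Pgk1 holds 2 matches and Car9 1, the latter 18 bases before the start. Car9 was at 257, 174, 123 and 114 CPM in organoids and 36.2, 18.2 and 19.5 CPM in tissue (log2 change 2.73 ± 0.35; edgeR adjusted p = 1.70e-05), with no overlap.

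Mitochondrial and ribosomal genes were mostly higher. Of 31 nuclear genes of oxidative phosphorylation 21 were higher and none lower; the median of 1.04 was -0.88 on the ribosomal scale. Atp5j, a subunit of ATP synthase, was at 191 to 215 against 16.4 to 75.9 CPM (log2 change 2.49 ± 0.38), while Cox4i1, a subunit of cytochrome oxidase, was at 649.5 to 821 against 546 to 639.6 CPM and was not called. Fatty acid oxidation was covered by 18 genes, 7 of them higher (4 without organoid library 1) and 7 lower: Acaa2, the last step of the mitochondrial cycle, was higher (242 to 333 against 52.3 to 98.7 CPM; log2 change 2.01 ± 0.24), and its peroxisomal relative Acaa1b lower (8.13 to 38.9 against 59.4 to 216 CPM; log2 change -2.07 ± 0.49). Of 38 ribosomal protein genes 35 were higher (92.1%) and none lower, with a median of 2.79. Rps3 was at 2155, 1968, 1868 and 2379 CPM in organoids and 173, 340.0 and 205 CPM in tissue (log2 change 3.14 ± 0.27; edgeR adjusted p = 5.17e-07), and Rplp0 at 1346 to 1789.7 against 234 to 390.1 CPM. Ribosomal protein genes have many near-identical pseudogenes, and no source used here says how reads with several matches were counted, so single genes are uncertain.

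The change of a gene went with the length of its transcript. Genes whose longest annotated transcript has up to 1000 nt had a median log2 change of 0.83 (531 genes, 48.2% called higher), and the median fell over each longer class, to 0.51, 0.27 and 0.05, and to -0.33 above 6000 nt (1513 genes, 20.2% called higher and 40.7% lower). Of the 38 ribosomal protein genes 15 are in the shortest class. Length was known for 94.3% of the genes tested. Its part in the results above was not tested.

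Genes of detoxification were among the largest rises. Mt2, a metallothionein that binds zinc and copper (chr8:94172664-94173568), was at 3317, 4069, 6735 and 7254 CPM in organoids and 10.1, 15.2 and 12.5 CPM in tissue, 433-fold higher (log2 change 8.76 ± 0.43; edgeR adjusted p = 7.70e-09). Gsta2, a glutathione transferase, had no count in tissue and 107, 24.2, 55.5 and 91.9 CPM in organoids, at least 72.7-fold higher against a floor of 3 counts over the tissue group, and Rgn (regucalcin, a calcium-binding protein) had none in tissue and 44.7 to 95.3 CPM in organoids, at least 72.2-fold higher. Gsta3 was at 212 to 321 against 0.842 to 4.55 CPM (log2 change 7.13 ± 0.38), Gsta4 at 228 to 317 against 3.91 to 12.6 CPM, and Gsta1 at 1590.1 to 3428 against 30.5 to 156 CPM. All Gsta genes named were higher, but copies of this family are much alike and can share reads. Also among the 10 highest were S100g (calbindin D9k, the calcium carrier of the duodenum) at 234 to 384 against 1.52 to 3.13 CPM, Gm3776, Gm1123, the aldose reductase relative Akr1b8 and the aldolase Aldoc. The last 4 had 1 to 3 counts in tissue, and Aldoc was at 48.4 to 138 CPM in organoids. Akr1b8 was at 53.2 to 108 CPM there, a ratio of organoids to tissue of 128 (95% interval of counting 35.5 to 1059).

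Targets of NRF2, the factor that answers oxidative stress, were higher in 11 of 19 cases and lower in 3; the median of 0.97 was -0.95 on the ribosomal scale. Nqo1, a quinone reductase, was at 214, 129.9, 178 and 161 CPM in organoids and 23.6, 19.7 and 9.38 CPM in tissue (log2 change 3.31 ± 0.31; edgeR adjusted p = 9.66e-07), and Cbr3, a carbonyl reductase, at 196 to 501 against 0 to 13.7 CPM (log2 change 6.29 ± 0.69). Srxn1 (sulfiredoxin), also an NRF2 target, was lower, at 125 to 213 against 390.1 to 429.7 CPM (log2 change -1.26 ± 0.20; edgeR adjusted p = 8.27e-05). Of 27 genes of drug metabolism 15 were lower and 7 higher, and on the epithelial scale 9 were lower and 11 higher. Cyp3a11, the main drug-oxidizing P450 of the mouse gut, was at 32.3, 26.2, 63.4 and 51.2 CPM in organoids and 292, 343 and 201 CPM in tissue (log2 change -2.68 ± 0.29; edgeR adjusted p = 4.27e-06), whereas Cyp2c66 had no count in tissue and 14.8 to 28.8 CPM in organoids, at least 22.4-fold higher.

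Genes that handle ethanol and retinol took both directions. Aldh1b1, a mitochondrial aldehyde dehydrogenase, was at 2668, 2049.8, 2603 and 2064 CPM in organoids and 246, 270.2 and 219.6 CPM in tissue, 9.58-fold higher (log2 change 3.26 ± 0.23; edgeR adjusted p = 1.001e-07). Aldh2, which clears acetaldehyde, was at 445 to 546 against 47.1 to 86.5 CPM, Adh5 at 155 to 216 against 15.2 to 17.2 CPM and Adh1, the alcohol dehydrogenase of the gut, at 430.3 to 1399 against 79.1 to 184 CPM. On the retinoid side, Rbp2, which carries retinol in enterocytes, was at 69.03, 23.98, 93.1 and 145 CPM against 356, 440.2 and 462 CPM (log2 change -2.34 ± 0.42; edgeR adjusted p = 4.19e-04). Aldh1a3, a maker of retinoic acid, had 3 organoid counts and 34.9 to 102 CPM in tissue, and Aldh1a2, which stromal cells are known to express, no organoid count and 3.37 to 10.6 CPM. The 4 enzymes of alcohol and aldehyde metabolism named were higher and these 3 retinoid genes lower, and of 17 genes of the joint list 4 were higher and 9 lower. The 4 named are thus all that were called higher, and the dehydrogenase genes Adh7 (log2 change 1.07) and Aldh1a1 (0.12) are not among them.

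Stress programmes moved in part. Immediate early genes, which answer handling and injury within minutes, were lower in 12 of 19 cases, higher in 3 and not called in 4. Fos was at 31.6, 20.5, 13.6 and 12.8 CPM in organoids and 95.1, 88.04 and 88.3 CPM in tissue (log2 change -2.20 ± 0.30; edgeR adjusted p = 2.70e-05) and Jun at 43.4 to 53.6 against 135 to 239.9 CPM (log2 change -1.92 ± 0.21). The 3 higher ones were Myc, Ier3 (20.5 to 59.3 against 10.6 to 21.9 CPM) and Gadd45b (9.25 to 14.8 CPM, with 1 count in tissue). Ier3 turned to lower on the ribosomal scale and was not called without organoid library 1 or 2 or tissue library 1 or 2 (edgeR adjusted p = 0.0627 to 0.156). Asns, asparagine synthetase and a target of the amino acid stress factor ATF4, was at 233, 218, 146 and 302 CPM in organoids and 0.842, 3.04 and 6.25 CPM in tissue, 63.5-fold higher (log2 change 5.99 ± 0.43; edgeR adjusted p = 1.43e-07). Atf4 itself was at 728 to 1412 against 786 to 2217 CPM and was not called (it was lower without tissue library 2, edgeR adjusted p = 0.00972), and the lower member of the list was Manf (210.2 to 267 against 420.5 to 1416 CPM; log2 change -2.19 ± 0.32), a target of the unfolded protein response. Without tissue library 2, 3 genes of that list were called lower. Of 12 heat shock genes 5 were higher, 1 lower and 6 not called. The lower one was the small heat shock protein Hspb1, with 2 counts in organoids and 3.13 to 5.05 CPM in tissue. The mitochondrial chaperonin Hspe1 and the constitutive Hspa8 were higher (293 to 429.8 against 28.1 to 35.3 CPM and 720.3 to 855 against 64.9 to 124 CPM), while the inducible Hspa1a was at 1.02 to 2.40 against 0 to 6.25 CPM and was not called, but was called lower without tissue library 2 (adjusted p = 0.0491). Of 14 p53 targets 6 were higher (42.9%, background 33.8%) and 4 lower (28.6%, background 30.1%). Ccng1 was at 95.3 to 151 against 23.6 to 41.4 CPM and Gdf15 at 14.4 to 63.3 CPM with 3 counts in tissue. Mdm2 was at 47.3 to 52.8 against 83.6 to 166 CPM and the death receptor Fas at 3.05 to 12.3 against 48.6 to 98.4 CPM. Cdkn1a (p21) was at 162 to 393 against 275 to 487 CPM and was not called. Of 15 clock genes tested 5 were higher (33.3%), 5 lower and 5 not called, near the shares of all genes (33.8% higher and 30.1% lower). Arntl and Npas2, partners of 1 complex that drives the clock, were lower (11.6 to 14.8 against 87.5 to 119.5 CPM and 6.50 to 15.7 against 57.7 to 101 CPM, log2 changes -2.94 ± 0.22 and -2.73 ± 0.31). Per1, which that complex switches on, was higher at 8.02 to 11.4 CPM with 3 counts in tissue. Other clock genes lay on both sides, such as Per3 (log2 change 2.27) and Cry2 (-2.35). The hour of sampling is not in the labels.

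Markers of gut region were checked last. Gata4, which sets the identity of the jejunum against the ileum, was at 121, 88.9, 89.2 and 128 CPM in organoids and 157, 128 and 171 CPM in tissue (log2 change -0.51 ± 0.20; edgeR adjusted p = 0.0355), and was not lower on the epithelial scale. It was not called without organoid library 2 or 3 or tissue library 1 or 3 (edgeR adjusted p = 0.0767 to 0.122). Gata5 was lower, at 19.3 to 30.1 against 115 to 177 CPM (log2 change -2.64 ± 0.22). Car1, a carbonic anhydrase known from colon, was at 0 to 0.436 CPM in organoids and at 10.9, 539 and 7.81 CPM in tissue, highest in tissue library 2. Hoxb13, a factor of the distal colon, had 1 organoid count and 5.89, 0 and 0 CPM in tissue. Transcripts of pancreatic enzymes were listed as a check for neighbouring tissue, and 11 of the 12 genes had no count in tissue. The list still took 0.00609 to 0.0102% of the counts in tissue and 0.0115 to 0.0202% in organoids. The protease precursor Ctrb1 was at 10.4, 1.53, 6.71 and 9.05 CPM in organoids and had no count in tissue (at least 7.21-fold higher). The lipase relative Pnliprp1 was at 2.18 to 4.52 CPM in organoids with none in tissue, while Prss2 had no count in either group. Clps, the third gene called higher, differed least (log2 change 0.76). The count of 3 such genes called higher fell to 0 or 1 without organoid library 1, 3 or 4.

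The same comparison in mice that drank ethanol gave much the same differences. There 7426 of 11135 genes tested (66.7%) were called, 3560 higher and 3866 lower. Of the 7202 genes called in control jejunum 6996 were tested in ethanol jejunum; 6069 were called in the same direction, 5 in the opposite one and 922 were not called. The 2 comparisons share no library. Lct was at 6.29, 3.97, 3.77 and 1.004 CPM in ethanol organoids and 4567, 3156, 2386 and 1651 CPM in ethanol tissue (log2 change -9.56 ± 0.51; edgeR adjusted p = 8.96e-09). Hmgcs1 was at 831 to 942 against 43.5 to 128 CPM (log2 change 3.17 ± 0.28) and Mt2 at 6101 to 8740.4 against 1.55 to 8.95 CPM (log2 change 10.10 ± 0.41). Lgr5, not called in control jejunum, was at 9.52 to 23.1 against 12.5 to 28.8 CPM (log2 change -0.30 ± 0.34; edgeR adjusted p = 0.45), and the difference between its changes after water and after ethanol did not pass (interaction, edgeR adjusted p = 0.593).

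Many lists gave like counts, and some did not. All 19 interferon-stimulated genes called in control jejunum, all 20 cholesterol genes, all 17 glycolysis and hypoxia genes and all 25 cell cycle genes were called in the same direction again, and 14 of 15 brush border enzymes. Sis was the enzyme that was not, at 856, 1113, 887 and 325 CPM in ethanol organoids and 459.5, 482, 379.9 and 712 CPM in ethanol tissue (log2 change 0.64 ± 0.32; edgeR adjusted p = 0.0857). Enteroendocrine genes, 9 higher and 5 lower in control jejunum (median 0.95), were 7 and 7 in ethanol jejunum (median -0.08). Goblet cell genes went from 6 higher and 5 lower (median 0.22) to 4 and 6 (median -0.54). Niche signals went from 3 and 7 of 12 tested to 1 and 9 of 13, and chemokines and NF-kB targets from 1 and 3 of 7 to 0 and 7 of 9. The median of all genes tested was also lower in ethanol jejunum, at -0.01 against 0.19. The median of tight junction genes was 0.17 in control and -0.26 in ethanol jejunum. With the deeper tissue libraries of ethanol mice, 7 T cell genes could be tested and all 7 were lower in organoids. Whether the difference between organoids and tissue itself differed between water and ethanol was tested over all 15 jejunum libraries: no gene of 12236 passed (edgeR interaction, smallest adjusted p = 0.120; 1068 genes at an unadjusted p under 0.05), and DESeq2 called 13. Without control tissue library 2 edgeR called 1 gene, and without ethanol tissue library 1 it called 4. The 5 genes called in opposite directions were Acsm3, Cd164, Leprot, Mynn and Wtip, which are named for that reason alone, and for them the interaction had adjusted p-values of 0.120 to 0.304 in edgeR. Each of the 5 lost its call in control jejunum without at least 1 of the libraries, Acsm3 without tissue library 3 alone (adjusted p = 0.052).

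**Figure D5:**
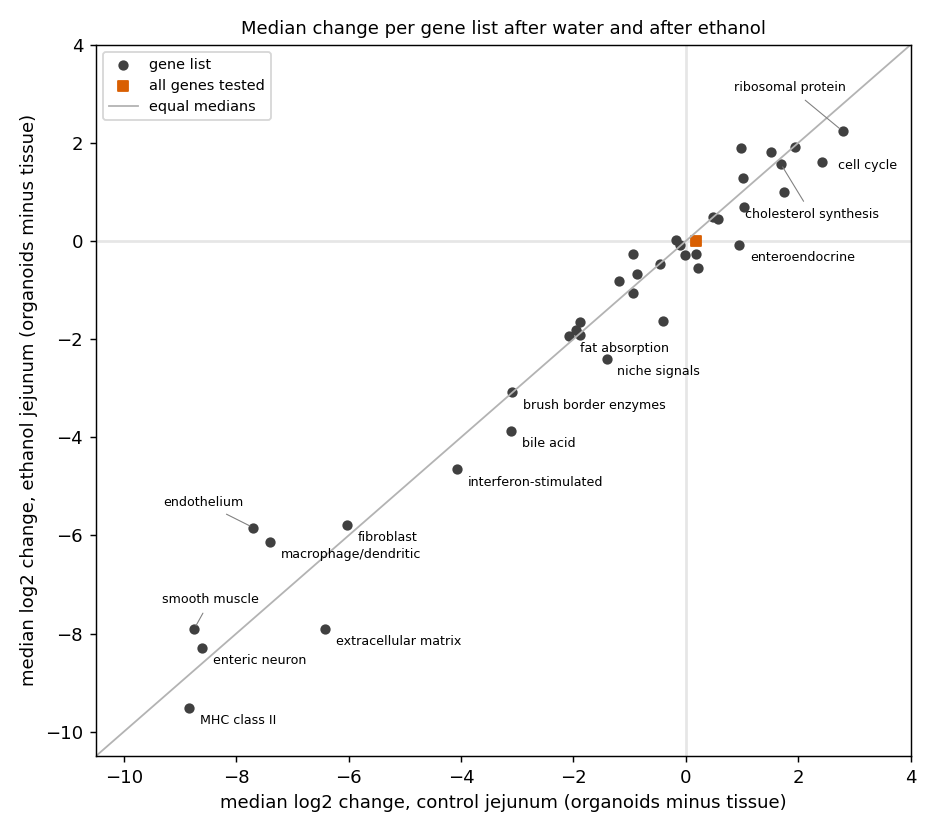
Median log2 change (organoids minus tissue) of each of the 38 gene lists with at least 5 tested genes in control jejunum (x axis, 4 against 3 libraries) and in ethanol jejunum (y axis, 4 against 4), with all genes tested as a square and the line of equal medians. The plotted lists run from MHC class II and smooth muscle at the low end to ribosomal protein genes at the high end; endothelium and extracellular matrix are among those farthest from it.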

How the data were processed

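The measurement was 3' tag sequencing of RNA from jejunal organoids and jejunum tissue of mice. The values used are raw counts of reads for each gene as the authors deposited them. Reads were processed with Trimmomatic 0.32, BWA and HTSeq against mm10, per the submitters' processing notes; the strand setting and the handling of reads that match several places are not given in the sources used here. A second deposited table of normalized values was not used. Rn45s was left out of library totals, and 23419 other genes were kept.

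Genes were filtered with filterByExpr, scaled by TMM and tested with the robust quasi-likelihood F-test of edgeR 4.0.16 in R 4.3.3, on the 7 control jejunum libraries alone, with Benjamini-Hochberg adjustment over all genes tested and a threshold of 0.05. The same fit was made on the 8 ethanol jejunum libraries, and the interaction of sample type with treatment was tested on all 15. The fit against a 2-fold change used glmTreat. Alternatives were other scalings, DESeq2 1.42.0, no filter, thinned counts, larger fits, the donor number as a block and leaving out each library. The scripts were tested on simulated data with known changes. A gene absent from a group is given against a floor of 3 counts over that group, and ratios with 1 to 3 counts with a 95% Poisson interval that covers counting error only.

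Genes were grouped in 49 lists with 825 entries, of which 823 were matched in the table. The members and lists were chosen with earlier results of these data known. Genes named are the first 3 of each list, up to 2 called members at each end, called members that go against their list, and the 10 highest and 10 lowest changes among genes with a mean of at least 50 CPM whose groups do not overlap; the exceptions are said in place. Coordinates are those of the GENCODE annotation of GRCm38, the assembly that mm10 names, and promoters are RefSeq's of GRCm38.p6. Some genes that the rule names are not reported here.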

Additional observations from a re-analysis of the deposited data

Results flagged for a closer look

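Single organoid libraries stood apart from the other 3 in some values, by the size of the gap to the nearest library relative to the range of the 4. In all 182 genes and 49 lists were looked at, and chance alone flags about 1 in 20 groups of 4. Tissue, with 3 libraries, was not examined in this way.

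Organoid library 2 was high in 2 hormone genes. Gcg was at 239 CPM there and at 113 to 127 CPM in the other organoid libraries, and Nts at 33.1 CPM against 13.2 to 15.6 CPM. The same library had the lowest share of the retinoid and ethanol list, 0.396% of counts against 0.510 to 0.526%, and the most genes detected, 13383 against 13182 to 13207. Its counts of Igj (0.654 CPM against 0), Kdr (0.218 CPM against 0) and Saa1 (1.31 CPM against 0 to 0.206) rest on few reads.

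Organoid library 3 had 201 CPM of the lectin Reg3b against 11.8 to 24.7 CPM, 208 CPM of the cholesterol enzyme Nsdhl against 160.3 to 168 CPM, and the lowest share of p53 targets, 0.0562% against 0.0917 to 0.0952%. Tagln was at 0.203 CPM there, from 1 count, and at 0 in the others.

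In organoid library 4 Cox4i1, a subunit of cytochrome oxidase, was at 821 CPM against 649.5 to 661 CPM, and Hspb1, a small heat shock protein, was at 0.411 CPM against 0. Organoid library 1 alone had a count of Acta2 and of Oas3 (0.173 CPM each against 0), and it was highest in Beta-s (0.867 CPM against 0), in the share of the erythrocyte list (9.21e-05% against 0) and in that of the mesothelium list (3.68e-04% against 8.69e-05 to 1.22e-04%).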

How the results depend on the processing

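The count of 7202 genes that differed in control jejunum ranged from 6367 to 7549 when 1 library was left out. It was 7322 with DESeq2, 8491 with no low-count filter, 5263 with all libraries thinned to the lowest depth, and 4052 when tested against a 2-fold change. With the donor number as a replicate block it was 5856; of the 182 genes examined singly 12 lost their call, 1 gained it and Ano1 changed sign (0.17). The same-numbered organoid and tissue libraries did not deviate together (correlations of deviations -0.03, -0.11 and -0.05), so the numbers were not treated as pairs. In ethanol jejunum the block gave 7235 calls against 7426, and 7164 to 7923 genes were called without 1 library. The test of the difference between water and ethanol called 0 genes, also with the block, 13 with DESeq2 (9 with a positive and 4 with a negative difference of control minus ethanol) and 0 to 4 without 1 library. Scaling decided most signs that turned: of the calls in control jejunum 4601 were higher and 2774 lower with library totals, 6020 and 1843 with the epithelial genes, and 598 and 7741 with the ribosomal protein genes, against 3806 and 3396. On the epithelial scale the log2 change of Ano1 (0.81), Atf4 (0.37), Cdh1 (0.085), Cdkn1a (0.62), Dclk1 (0.27), Dll1 (0.024), Gata4 (0.35), Ifih1 (0.22), Ocln (0.29) and Tpm1 (0.46) turned positive. On the ribosomal scale that of Ang4 (-0.94), Cd164 (-1.46), Cdx1 (-0.20), Cldn2 (-0.35), Cox4i1 (-1.73), Esrp1 (-0.54), Gapdh (-0.89), Hnf4a (-0.27), Ier3 (-0.92), Kit (-1.70), Krt18 (-1.14), Krt19 (-0.57), Krt8 (-0.65), Ldha (-0.81), Leprot (-1.38), Lgr5 (-0.88), Lyz1 (-1.68), Mki67 (-0.32), Mynn (-0.88), Neurog3 (-1.61), Reg3a (-0.33), Reg4 (-0.54), Sar1b (-1.13), Sis (-0.35), Slc2a5 (-1.27), Tff3 (-0.039), Top2a (-0.69) and Wtip (-0.84) turned negative. With library totals Ano1 (0.28) and Cdkn1a (0.054) turned positive. Ano1 was at 0.059 with no low-count filter, 0.019 with 15 and 0.075 with 27 libraries in 1 fit, and without 1 library it ran from -0.55 to 0.52. Without 1 library Etv1 ran from -1.26 to 0.052, Neurog3 from -0.12 to 1.69 and Tpm1 from -0.63 to 0.15. Of 1227 values of single genes without 1 library 53 lost their call and 8 changed sign. The cause of these changes was not tested. The low depth outside Rn45s in tissue, 684906 counts in library 2, limits what can be said of low genes there.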

Other observations

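Markers of further cell types were also low in organoids. Mcpt2, a protease of mucosal mast cells, had no organoid count and 3.37 to 10.6 CPM in tissue, at least 41.8-fold higher there, and was the 1 gene tested of 12 listed for granulocytes and mast cells. Beta-s, a beta globin gene of red blood cells, had 5 organoid counts and 19.4, 95.6 and 11.7 CPM in tissue. None of the 8 tested transcription factors of the small intestine was higher and 4 were lower, although the list median of -0.46 became 0.36 on the epithelial scale.

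Chemokines and NF-kB targets, through which epithelium calls immune cells, took both directions. Of 14 listed, 7 were tested, 1 was higher and 3 lower. Ccl28, which attracts cells that make immunoglobulin A, was the higher one, at 19.9, 22.9, 19.5 and 23.03 CPM in organoids and 0.842, 6.07 and 3.13 CPM in tissue (log2 change 2.84 ± 0.48), and Cxcl16, a chemokine bound to membranes, at 10.97 to 30.8 CPM against 40.6 to 65.3 CPM (log2 change -1.19 ± 0.34; edgeR adjusted p = 0.00684). Among all genes counted, 163 had no count in the 4 organoid libraries and at least 20 counts in tissue, and 317 genes had no count in the 3 tissue libraries and at least 20 counts in organoids. The tissue libraries held far fewer counts outside Rn45s than the organoid libraries, so the second number includes genes that tissue could express below the floor of 3 counts.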
